A study of Mus musculus with 4 samples.

Results

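Pericytes are the mural cells that wrap capillaries and share a basement membrane with the endothelium. They respond to endothelial platelet-derived growth factor through the receptor Pdgfrb and to Notch ligands through Notch3, and their membrane potential is set in part by a potassium channel built from Kcnj8 and Abcc9. Vascular smooth muscle cells, their neighbours on arterioles, carry some of the same receptors together with a contractile apparatus led by Myh11 and Acta2.

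The pericytes described here were selected from 4 single-cell RNA libraries of the submandibular gland of female C57BL6/J mice. Epithelial (EpCAM) and red blood (Ter119) cells had been depleted with beads, and dead cells removed. In the 2 deligated libraries, from mice aged 14 weeks, a clip had closed the main gland ducts for 14 days and had then been off for 5 days. The 2 homeostatic libraries came from mice aged 12 weeks without surgery. The protocols mention the sublingual gland beside the submandibular gland, and the labels do not say how many animals gave a library, so p-values measure only the spread between these libraries, which may be technical. Age, surgery and software differ together: the file headers name Cell Ranger 6.0.1 for the deligated and 7.0.0 for the homeostatic libraries, whereas the submitters' processing notes name 6.0.1. Their parts cannot be told apart.

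A cell counted as a pericyte when it had at least 300 genes, at most 10% mitochondrial UMIs (unique molecular identifiers, the counts of captured RNA molecules), and at least 4 UMIs summed over Rgs5, Kcnj8, Higd1b and Notch3. It could hold at most 1 UMI of Myh11, at most 1 of Pecam1 and Cdh5 together, and 0 of Pdgfra, Ptprc or Krt14. The rule gave 320 cells of 36685 retained cells and 39558 barcodes. Deligated library 1 held 84, deligated library 2 held 141, homeostatic library 1 held 56 and homeostatic library 2 held 39. Few cells lay near the marker limit: members with a sum of 4 or 5 numbered 0, 2, 4 and 0 in that order, and cells with a sum of 2 or 3 that met the other conditions numbered 2, 6, 5 and 4. More lay near the Myh11 limit, since 29, 38, 14 and 5 members held exactly 1 Myh11 UMI, and 19, 23, 4 and 7 cells with the marker sum held exactly 2. Of 354, 572, 165 and 140 retained cells with the marker sum, 246, 354, 89 and 90 held 2 or more Myh11 UMIs and were left out. No barcode was shared between members of different libraries, and 12 to 43 barcodes were shared by each pair of libraries among all retained cells.

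Member cells were deeper in the deligated libraries, with median UMIs of 4436 and 3531 against 2698.5 and 2856. Summed over members, the libraries gave 395419, 513432, 152617 and 114021 UMIs. Levels below are in CPM, counts scaled to the same total in each sum and not corrected for gene length, always listed for deligated libraries 1 and 2 and then homeostatic libraries 1 and 2. A gene near 10 CPM in the homeostatic sums rests on 1 or 2 UMIs.

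The selected cells carried the pericyte programme beyond the genes that chose them. As a description, with no test, Pdgfrb was at 1634, 1702, 1684 and 1465 CPM. Abcc9, the channel subunit that partners Kcnj8, was at 2205, 2133, 2595 and 2842 CPM. Vtn, encoding the matrix protein vitronectin, was at 592, 713, 701 and 596 CPM. In each case the 4 libraries lay within a narrow range. All 20 genes of a pericyte identity list were detected in every library, with a summed level of 14347, 16758, 16276 and 17330.1 CPM. In the smooth muscle class, defined by at least 4 Myh11 UMIs, the same list summed to 8339, 8953, 7984 and 8222 CPM.

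**Figure D1:**
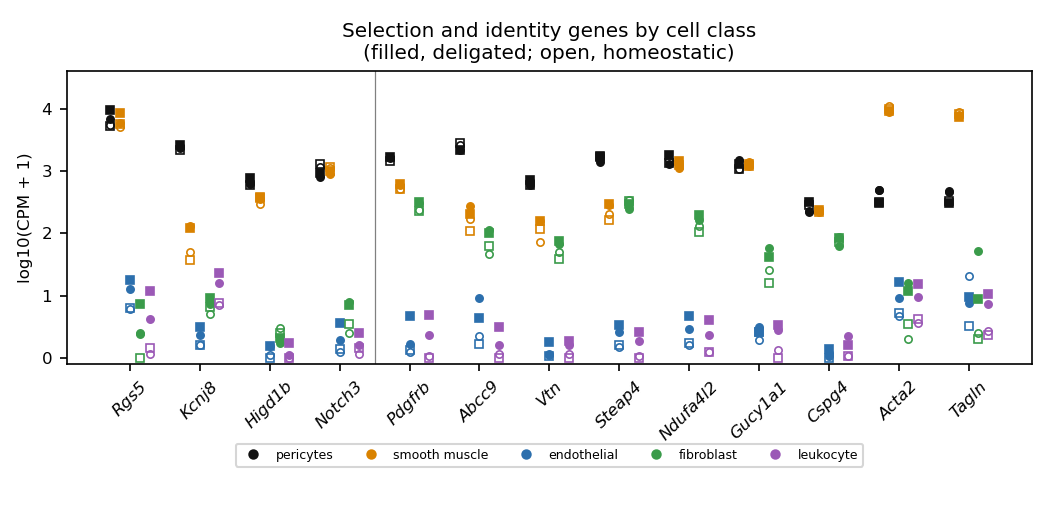
Levels of the selection genes (left of the line) and of identity and contractile genes (right) as log10(CPM + 1) in summed cells of 5 classes, with 1 point per library (circle, replicate 1; square, replicate 2; filled, deligated; open, homeostatic). Acta2 in pericytes, 493, 309.7, 485 and 316 CPM, lies below its level in smooth muscle in every library.

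Contractile genes were low but present. Acta2, smooth muscle actin, was at 493, 309.7, 485 and 316 CPM, and Tagln, an actin-binding protein of contractile cells, at 483, 302, 465 and 325 CPM. The groups overlapped for both. The Acta2 molecules sat in few cells: 55 of 84, 90 of 141, 35 of 56 and 26 of 39 members had none, and the 10% of members with most Acta2 held 72.3%, 67.9%, 62.2% and 55.6% of them. The members differ in depth between groups, and with every cell thinned to 1000 UMIs, which left out 2, 7, 7 and 2 shallower members, 18.3%, 13.4%, 26.5% and 27.0% of members had an Acta2 UMI, against 1.26%, 1.72%, 0.380% and 0.383% of endothelial cells. Both deligated shares lay below both homeostatic ones, while the 95% exact intervals of the 4 pericyte shares overlapped and the levels in CPM did not separate the groups. The Myh11 limit of the rule counts raw UMIs, so it is stricter for the deeper deligated cells, and its part in these shares was not tested. Of 10 smooth muscle markers, Cnn1 and Actg2 were at 0 in every library, and the list summed to 1639, 1254, 1383 and 1123 CPM in pericytes against 20516, 20511, 24446 and 22183 CPM in the smooth muscle class. The rule itself limits cells with endothelial or leukocyte genes, and other markers of those types were still present. The 12 endothelial markers summed to 1158, 1755, 1134 and 1491 CPM, against 22968, 25237, 24727 and 24344 CPM in the endothelial class. The other lists summed as follows: 13 leukocyte markers to 35.4, 249, 432 and 272 CPM, 8 Schwann cell markers to 27.8, 25.3, 19.7 and 8.77 CPM and 6 erythroid markers to 43.0, 220.1, 295 and 105 CPM. The B cell gene Cd79a, the myelin gene Mbp and the erythroid gene Alas2 were at 0 in every library. Leukocyte markers were lowest in deligated library 1, and C1qb, a complement subunit of macrophages, was called lower in the deligated sums, with 0, 6, 13 and 6 UMIs (edgeR adjusted p 0.379 without deligated library 1 and 0.176 without deligated library 2). Mki67 or Top2a, genes of dividing cells, had a UMI in 1 member of deligated library 2 and 1 member of homeostatic library 1.

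Pericytes made up a larger part of the suspension after release of the ducts. They were 1.86% (95% exact interval 1.48 to 2.30) and 1.68% (1.42 to 1.98) of retained deligated cells, and 0.478% (0.361 to 0.620) and 0.323% (0.230 to 0.442) of retained homeostatic cells. Both deligated libraries lay above both homeostatic ones, and the intervals, which cover counting error only, did not meet. The mean share was 1.77% ± 0.125 against 0.401% ± 0.109 (SD, n = 2 each), a log2 ratio of 2.13 (SE 0.22, edgeR adjusted p 0.00442 over 7 cell classes). Relative to the endothelium they cover, pericytes numbered 5.02 and 5.27 per 100 endothelial cells in the deligated and 1.63 and 1.14 in the homeostatic libraries. That ratio rose as well (log2 ratio 1.89, SE 0.27, edgeR adjusted p 2.58e-05).

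Smooth muscle cells rose alongside (log2 ratio of their share 2.58, SE 0.32, edgeR adjusted p 0.00585), and there were 2.35, 1.62, 1.16 and 1.87 of them per pericyte, with overlapping groups. The fibroblast share rose too (log2 ratio 1.55, SE 0.05, edgeR adjusted p 0.000317), and the epithelial share fell by 4.37 on the log2 scale (edgeR adjusted p 0.00125), from 592 and 615 homeostatic to 16 and 15 deligated epithelial cells. The leukocyte share rose (log2 ratio 1.11, SE 0.04, edgeR adjusted p 0.000317), and cells that met the rule of no class, 891 of 4521, 2239 of 8386, 5662 of 11713 and 5987 of 12065, fell as a share (log2 ratio -1.07, SE 0.18, edgeR adjusted p 0.0121). With epithelial cells left out of the denominator the pericyte log2 ratio was 2.06. Cells with a marker sum of 0 that met the other limits numbered 159, 368, 4723 and 5144, with median UMIs of 2215, 1534.5, 1046 and 1028.5. They count in the denominator of the share but not in that of the ratio to endothelial cells. Among cells with at least 1000 UMIs the mean pericyte share was 1.74% deligated and 0.462% homeostatic. How each cell type survived dissociation and bead depletion was not tested.

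**Figure D2:**
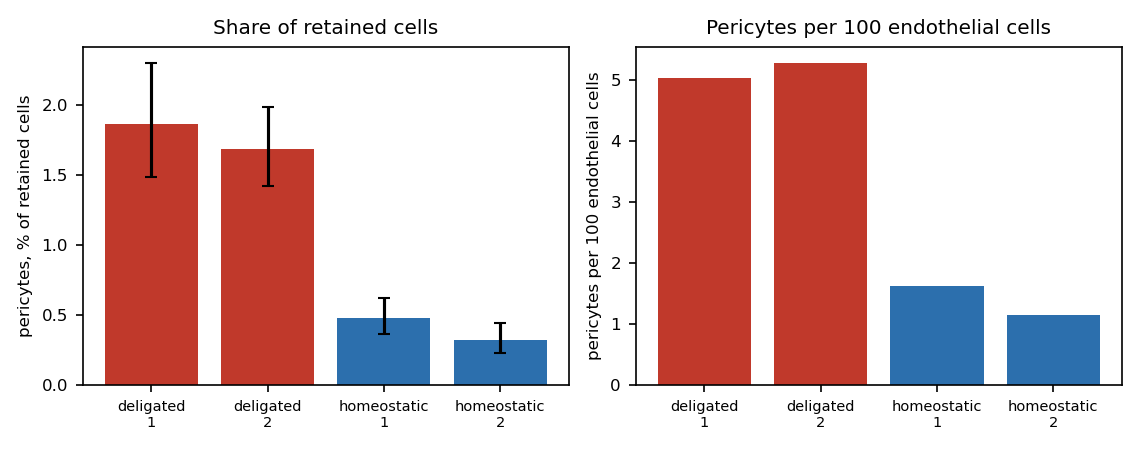
Pericytes as a percent of retained cells (left, bars with 95% exact intervals) and per 100 endothelial cells (right) in each library. Deligated libraries stand at 1.86% and 1.68% of cells and homeostatic libraries at 0.478% and 0.323%.

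Within pericytes, summed counts were compared between deligated and homeostatic libraries with edgeR's quasi-likelihood test over 5129 genes that passed its filter on low counts, leaving out the selection genes. At an adjusted p under 0.05 the test called 433 genes (8.44%), 81 higher (1.58%) and 352 lower (6.86%) in the deligated libraries. The lower calls went with gene structure. Genes with over 100 kb of total intron gave 8.92% and 8.57% of pericyte UMIs in the deligated and 15.4% and 16.7% in the homeostatic libraries, and 261 of the 760 tested were called, 260 of them lower. With the trend of fold change on intron length removed, 220 genes (4.29%) were called, 105 higher (2.05%) and 115 lower (2.24%). Both fits called 153 genes in the same direction, 39 higher and 114 lower. The later Cell Ranger counts intron reads by default and the earlier does not, the headers do not give the setting, and the part of the software cannot be told apart from that of the group. DESeq2's Wald test called 168 genes and kept the direction but not the call of 28 of the named called genes. The named genes were taken from these calls and from gene lists by one rule, and calls lost when 1 library was left out are given with the adjusted p without it.

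Among the largest increases was that of Dbp, a transcription factor at the output of the circadian clock. It was at 101, 113, 6.55 and 8.77 CPM (chromosome 7, 45705088 to 45710203, GRCm38). The groups were apart. The homeostatic values rest on 1 UMI each. The ratio of group sums was 14.4 (95% exact interval 3.87 to 120.4; edgeR adjusted p 0.000136), where the interval covers counting error only. Dbp was also higher by level in other deligated cells, at 70.6, 88.3, 12.5 and 11.5 CPM in endothelial cells and at 36.5, 50.5, 9.01 and 5.56 CPM in fibroblasts. Sphk2 lies on the opposite strand of the same locus, and whether counting used strand is not given in the sources used here.

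Of 9 tested clock genes, 1 was called higher, Dbp, and 3 lower, Rora, Npas2 and Clock. Rora, a nuclear receptor that acts on clock gene transcription, was at 111, 138, 537 and 763 CPM, with introns of 721 kb, and its call was lost with the trend removed (edgeR adjusted p 0.31). Clock, a core subunit of the oscillator, was at 106, 68.2, 164 and 254 CPM and was lost likewise (edgeR adjusted p 0.182) and when single libraries were left out (edgeR adjusted p 0.114 without deligated library 2 and 0.32 without homeostatic library 2). With cells thinned to 1000 UMIs before selection its log2 fold change was -0.74 (edgeR adjusted p 0.059). Here and below, that thinning decided only which cells were members, and their sums kept all UMIs. Npas2, which can take the place of Clock, was called in both fits, at 7.59, 19.5, 105 and 158 CPM (log2 fold change of -3.11 with SE 0.48, adjusted p 3.88e-05 by edgeR). Nr1d1, a repressor in the clock loop, was at 80.9, 130.5, 45.9 and 52.6 CPM and was not called (edgeR adjusted p 0.0988). The hour of harvest is not in the labels, and its part was not tested.

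Several secreted proteins were higher in the deligated libraries. Igfbp5, which binds insulin-like growth factors, was at 357, 275, 72.1 and 105 CPM, with separate groups (log2 fold change of 1.89 with SE 0.32, adjusted p 0.000134 by edgeR). Gpx3, the extracellular glutathione peroxidase, was at 98.6, 169, 26.2 and 35.1 CPM, again with separate groups (log2 fold change of 2.20 with SE 0.47, adjusted p 0.00215 by edgeR). The Gpx3 call was lost in at least 1 of the alternatives run. Col18a1, the basement membrane collagen that yields endostatin, had 30, 21, 2 and 0 UMIs. Its ratio of group sums was 7.48 (95% exact interval 1.97 to 63.4; edgeR adjusted p 0.0236), and it was not called when single libraries were left out (edgeR adjusted p 0.0962 without deligated library 2 and 0.175 without homeostatic library 2) or with cells thinned to 1000 UMIs before selection (edgeR adjusted p 0.0763).

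Other large increases were in intracellular proteins. Lpin1, a phosphatidate phosphatase of lipid synthesis, had 15, 21, 0 and 1 UMIs, a ratio of 10.6 (95% exact interval 1.78 to 429; edgeR adjusted p 0.0268), and was lost when a library was left out (edgeR adjusted p 0.401 without homeostatic library 1). Pcp4l1, a small protein related to Purkinje cell protein 4, was at 177, 199, 72.1 and 43.9 CPM (log2 fold change of 1.68 with SE 0.36, adjusted p 0.00192 by edgeR; edgeR adjusted p 0.0563 without homeostatic library 2). Both deligated libraries stood above both homeostatic ones for each. Plec, the cytoskeletal linker plectin, was at 80.9, 72.1, 13.1 and 35.1 CPM (log2 fold change of 1.77 with SE 0.55, adjusted p 0.0428 by edgeR; edgeR adjusted p 0.307 without deligated library 1, 0.134 without deligated library 2 and 0.495 without homeostatic library 1). Rnf10, a ring-finger protein, was at 101, 87.6, 39.3 and 17.5 CPM (log2 fold change of 1.67 with SE 0.49, adjusted p 0.0291 by edgeR; edgeR adjusted p 0.126 without deligated library 1, 0.0583 without homeostatic library 1 and 0.287 without homeostatic library 2). Bloc1s1, a subunit of a complex for lysosome-related organelles, was at 129, 216, 58.97 and 70.2 CPM (log2 fold change of 1.48 with SE 0.38, adjusted p 0.0101 by edgeR; edgeR adjusted p 0.0702 without deligated library 2 and 0.136 without homeostatic library 1; 0.0679 with thinned sums). With cells thinned to 1000 UMIs before selection 4 of these 5 were not called, with log2 fold changes of 1.38 for Lpin1, 0.40 for Pcp4l1, 0.12 for Plec and 0.87 for Rnf10 (edgeR adjusted p 0.156, 0.246, 0.86 and 0.1). Plec was also lost in members with at least 1000 UMIs, with a marker sum of at least 6 and without the highest doublet scores (edgeR adjusted p 0.0512, 0.0527 and 0.0503).

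**Figure D3:**
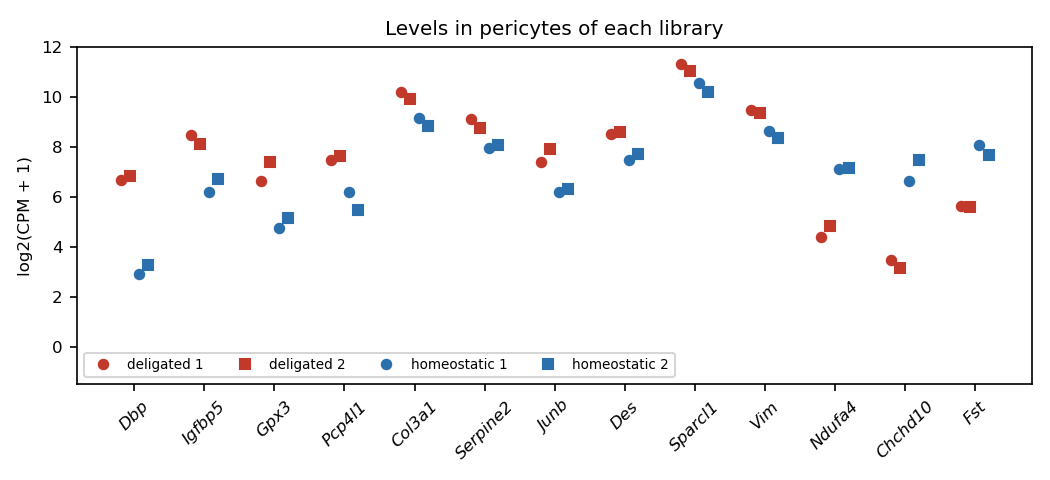
Levels of 13 genes in summed pericytes as log2(CPM + 1), with 1 point per library (red, deligated; blue, homeostatic; circle, replicate 1; square, replicate 2). The deligated points lie above the homeostatic points from Dbp to Vim and below them from Ndufa4 to Fst.

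Collagens and other members of the fibrillar matrix and fibrosis list lay mostly above 0. Of 22 tested members 4 were called higher, 20 had a positive fold change, and the median log2 fold change was 0.62 (0.40 with sums thinned to the smallest library), beside 0.03 over all tested genes. Col3a1, the main collagen of reticular fibres, was at 1168, 969.9, 564 and 456 CPM (log2 fold change of 1.10 with SE 0.22, adjusted p 0.000909 by edgeR). Col1a2, a chain of type I collagen, was at 582, 586, 393 and 289 CPM (log2 fold change of 0.80 with SE 0.23, adjusted p 0.0254 by edgeR; edgeR adjusted p 0.369 without homeostatic library 2). In both the groups were apart. Col6a1, of the microfibrillar collagen VI, was at 531, 582, 393 and 263 CPM (log2 fold change of 0.78 with SE 0.23, adjusted p 0.0347 by edgeR; edgeR adjusted p 0.462 without homeostatic library 2; 0.0842 with the intron trend removed). Serpine2, an inhibitor of serine proteases, was at 554, 434, 249 and 272 CPM (log2 fold change of 0.97 with SE 0.25, adjusted p 0.0106 by edgeR; edgeR adjusted p 0.127 without homeostatic library 1 and 0.0513 without homeostatic library 2). Sums thinned to the smallest library ended the calls of Col1a2 and Col6a1 (edgeR adjusted p 0.0827 and 0.0611), and selection without a Myh11 UMI that of Col1a2 (edgeR adjusted p 0.0728).

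Col3a1 was called under each of the 16 alternatives run, and it was the 1 list member that DESeq2's Wald test called. Timp3, an inhibitor of metalloproteinases, was at 2213, 2518, 1729.8 and 1701 CPM and was not called (edgeR adjusted p 0.105). Postn, a matricellular protein of fibrotic tissue, was at 582, 557, 589.7 and 368 CPM, with overlapping groups. Fibroblast markers moved with this list: the 12 of them summed to 908, 1375, 688 and 675 CPM in pericytes. The lists overlap, and the largest log2 fold change among tested members, 1.73, is the same in both. Gsn, encoding gelsolin, was called higher, at 496, 738, 334 and 403 CPM (log2 fold change of 0.79 with SE 0.24, adjusted p 0.0332 by edgeR; edgeR adjusted p 0.226 without deligated library 2, 0.299 without homeostatic library 1 and 0.069 without homeostatic library 2). Its call was also lost with thinned sums and with a marker sum of at least 6 (edgeR adjusted p 0.222 and 0.0549). Among the defining fibroblast genes Pdgfra was at 0 by the rule, and Pi16, Dpp4 and Clec3b were at 0 in every library. The part of fibroblast RNA in the matrix values was not tested.

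The basement membrane list, for the sheet that pericytes share with endothelium, had 1 of 16 tested members called higher, Col18a1, with a median log2 fold change of 0.14. Sparc, a collagen-binding glycoprotein, was at 4491, 4489, 4102 and 3569.5 CPM and was not called (edgeR adjusted p 0.475). Col4a1, the principal basement membrane collagen, was at 2392, 2035, 2044 and 1569.9 CPM and was not called (edgeR adjusted p 0.38). With the intron trend removed, 4 members were called higher, Col4a1 among them (log2 fold change 0.89, edgeR adjusted p 0.00656).

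Of 20 tested identity genes 1 was called higher and 1 lower, with a median of 0.12. Des, the intermediate filament desmin, was at 362, 382, 177 and 210.5 CPM (log2 fold change of 0.99 with SE 0.25, adjusted p 0.0106 by edgeR; edgeR adjusted p 0.216 without homeostatic library 1 and 0.0526 without homeostatic library 2; 0.0879 among members without a Myh11 UMI). The groups were apart. DESeq2 called 0 of the list, and 5 members had an unadjusted edgeR p under 0.05. Ebf1, a transcription factor of mural cells, was at 1735, 2213, 2129.5 and 4490.4 CPM, with overlapping groups (edgeR adjusted p 0.0674).

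Most identity genes were not called. Cd248, or endosialin, was at 121, 189, 85.2 and 78.9 CPM (edgeR adjusted p 0.0985). Rgs4, a brake on G-protein signals, was at 453, 504, 334 and 333 CPM (edgeR adjusted p 0.146). Gucy1a1, a subunit of the nitric oxide receptor, was at 1477, 1313, 1094 and 1088 CPM (edgeR adjusted p 0.251). For these 3 the groups did not overlap, which was true of 49.2% of all tested genes. Cspg4, Cox4i2, Ndufa4l2, Mcam, Anpep, Art3, Steap4, Gucy1b1, Heyl, Gja4 and P2ry14 had log2 fold changes between -0.29 and 0.71.

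edgeR called 0 of 15 tested contractile genes, with a median of 0.10. Of these, 2 had an unadjusted edgeR p under 0.05, and DESeq2 called 0. The rule admits at most 1 Myh11 UMI, so cells rich in contractile RNA were left out of both groups beforehand. The count describes the selected cells only. Cald1, an actin regulator, was at 1770.3, 1605, 1363 and 1175 CPM (edgeR adjusted p 0.177). Its introns total 165 kb, and it was called higher with the trend removed (log2 fold change 1.28, edgeR adjusted p 6.46e-05). Myl6, a myosin light chain, was at 1171, 1324, 1206 and 1017 CPM, with overlapping groups.

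In the vessel signalling list 1 of 16 genes was called, with a median of 0.09. That gene was Angpt1, the pericyte ligand of the endothelial receptor Tek, at 60.7, 62.3, 157 and 158 CPM (log2 fold change of -1.31 with SE 0.33, adjusted p 0.00998 by edgeR; edgeR adjusted p 0.115 without homeostatic library 1 and 0.0625 without homeostatic library 2). Its introns total 247 kb, and with the trend removed it was not called (log2 fold change -0.22, edgeR adjusted p 0.821). Thinned sums ended the call as well (edgeR adjusted p 0.124). Ednrb, an endothelin receptor, was at 1530.0, 1342, 1258 and 1219 CPM and was not called (edgeR adjusted p 0.525).

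Among ion channel and calcium genes, which set pericyte tone, 8 of 19 were called lower. Prkg1, the kinase activated by cyclic GMP, was at 134, 97.4, 1691 and 2499.5 CPM (log2 fold change of -4.14 with SE 0.25, adjusted p 1.73e-12 by edgeR). Cacna1c, the pore of the L-type calcium channel, was at 114, 127, 891 and 912 CPM, and Cacnb2, its beta subunit, at 27.8, 23.4, 249 and 281 CPM. The groups were far apart, and the total introns of these 3 genes run to 1189.7 kb, 588 kb and 372 kb. The list's median was -0.77, and 0.06 with the trend removed, when 5 members were still called lower. Without deligated library 1 the median was -0.43 and without homeostatic library 1 -0.38. With the trend removed Prkg1 was still called (log2 fold change -1.95, edgeR adjusted p 4.48e-06). Prkg1 stood lower in the other deligated classes too, at 11.4, 6.94, 282 and 293 CPM in endothelial cells.

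**Figure D4:**
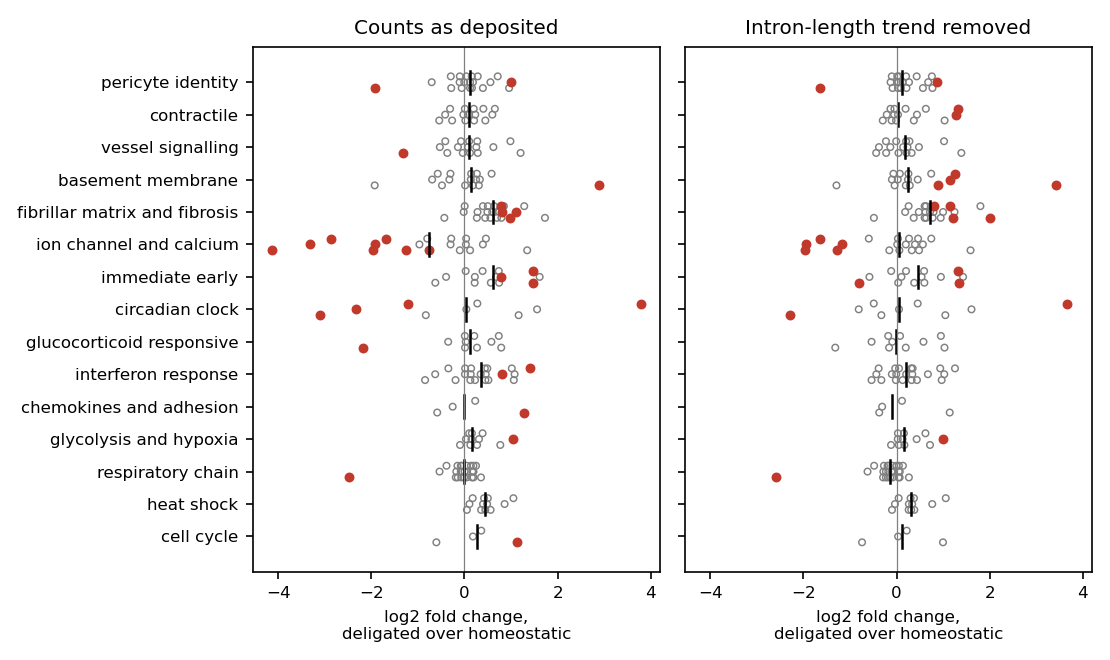
Log2 fold change, deligated over homeostatic, of every tested member of 15 gene lists in pericytes (points; red where the edgeR adjusted p was under 0.05; bar, median), from counts as deposited (left) and with the intron-length trend removed (right). The ion channel list moves from a median of -0.77 to 0.06, and the fibrillar matrix list from 0.62 to 0.73.

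Immediate early genes, which respond to stimulation and also to tissue dissociation, had 3 of 14 tested members called higher by edgeR and 0 by DESeq2, with a median of 0.62. The median was 0.99 without deligated library 1, 0.31 without deligated library 2 and 0.17 among members without a Myh11 UMI. Junb, a subunit of the AP-1 transcription factor, was at 167, 238, 72.1 and 78.9 CPM (log2 fold change of 1.47 with SE 0.34, adjusted p 0.00447 by edgeR; edgeR adjusted p 0.0839 without homeostatic library 1). Fos, which pairs with Jun proteins, was at 157, 360.3, 131 and 52.6 CPM (log2 fold change of 1.47 with SE 0.39, adjusted p 0.0133 by edgeR; edgeR adjusted p 0.174 without deligated library 2 and 0.146 without homeostatic library 2). Among members without a Myh11 UMI the Fos log2 fold change was 0.30 (edgeR adjusted p 0.757). Rhob, a small GTPase, was at 551, 1038, 505 and 439 CPM (log2 fold change of 0.78 with SE 0.25, adjusted p 0.0468 by edgeR; edgeR adjusted p 0.55 without deligated library 2, 0.064 without homeostatic library 1 and 0.216 without homeostatic library 2; 0.201 with the intron trend removed). Without Myh11 UMIs the calls of Junb and Rhob (edgeR adjusted p 0.0785 and 0.0945) were lost too, and with thinned sums those of Fos and Rhob (edgeR adjusted p 0.111 and 0.0656). Rhob was also lost with a marker sum of at least 6 and with a replicate block (edgeR adjusted p 0.0702 and 0.057). Jund, another AP-1 subunit, was at 496, 565, 871 and 807 CPM (log2 fold change of -0.63 with SE 0.20, adjusted p 0.0522 by edgeR), and with the intron trend removed it was called lower (edgeR adjusted p 0.0157). The part of dissociation in these values was not tested.

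In the interferon response list 2 of 21 members were called higher. H2-D1, a class I histocompatibility molecule, was at 690.4, 923, 564 and 368 CPM (log2 fold change of 0.81 with SE 0.23, adjusted p 0.0222 by edgeR; edgeR adjusted p 0.0987 without deligated library 2 and 0.384 without homeostatic library 2). Psmb8, an immunoproteasome subunit, was at 116, 119, 39.3 and 52.6 CPM (log2 fold change of 1.41 with SE 0.41, adjusted p 0.0276 by edgeR; edgeR adjusted p 0.333 without homeostatic library 1 and 0.0953 without homeostatic library 2). Both calls were lost with the trend removed (edgeR adjusted p 0.0991 and 0.0887). Of 4 tested chemokine and adhesion genes 1 was called, Nfkbia, the inhibitor of NF-kappaB, at 152, 152, 58.97 and 70.2 CPM (log2 fold change of 1.28 with SE 0.36, adjusted p 0.0218 by edgeR; edgeR adjusted p 0.274 without homeostatic library 1 and 0.102 without homeostatic library 2; 0.0737 with the trend removed). With cells thinned to 1000 UMIs before selection the log2 fold changes were 0.36 for H2-D1, 0.30 for Psmb8 and 0.47 for Nfkbia (edgeR adjusted p 0.219, 0.544 and 0.222), and with thinned sums Psmb8 was not called (edgeR adjusted p 0.0878). Cxcl12, a chemokine of stromal cells, was at 726, 1069, 858 and 702 CPM, and Ccl11, which attracts eosinophils, at 372, 986, 911 and 737 CPM, both with overlapping groups.

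The glycolysis and hypoxia, cell cycle, glucocorticoid responsive and heat shock lists held at most 1 call each. Pkm, pyruvate kinase, was the 1 of 11 glycolysis and hypoxia genes called, at 243, 255, 98.3 and 158 CPM (log2 fold change of 1.03 with SE 0.29, adjusted p 0.0236 by edgeR; edgeR adjusted p 0.451 without homeostatic library 1). With cells thinned to 1000 UMIs before selection its log2 fold change was 0.46 (edgeR adjusted p 0.252, and 0.0972 with thinned sums). Aldoa and Gapdh, of the same pathway, had log2 fold changes of 0.16 and 0.03. Hmgb2, a chromatin protein, was the 1 of 4 tested cell cycle genes called (log2 fold change of 1.14 with SE 0.34, adjusted p 0.0308 by edgeR; edgeR adjusted p 0.161 without homeostatic library 1 and 0.258 without homeostatic library 2; 0.102 with the trend removed). Zbtb16, a transcription factor induced by glucocorticoids, was the 1 of 10 glucocorticoid responsive genes called (log2 fold change of -2.19 with SE 0.48, adjusted p 0.0026 by edgeR; edgeR adjusted p 0.0802 without deligated library 1 and 0.0829 without homeostatic library 2; 0.127 with the trend removed). edgeR called 0 of 12 heat shock genes, 1 had an unadjusted p under 0.05 and DESeq2 called 0. DESeq2 also called 0 of the glycolysis and hypoxia, cell cycle and glucocorticoid responsive lists. The same held for the interferon response, chemokine and adhesion, vessel signalling and basement membrane lists.

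Ndufa4, a small subunit associated with cytochrome c oxidase, was the 1 call among 25 respiratory chain genes. It was at 20.2, 27.3, 138 and 140.3 CPM, with tight and separate groups (log2 fold change of -2.47 with SE 0.41, adjusted p 9.73e-05 by edgeR), and its introns total 5.83 kb. It was called under each of the 16 alternatives run, with the smallest fold change, -0.81, when cells were thinned to 1000 UMIs before selection. Other chain subunits were not called: Cox8a was at 1014, 1118, 1088 and 1096 CPM and Cox6c at 695, 871, 649 and 605 CPM. Ndufa4l2, the paralogue that marks pericytes, was at 1299.9, 1809, 1527 and 1324 CPM, and how reads shared between similar genes were counted is not given in the sources used here.

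Most of the largest decreases were in gland products. Mucl2, a mucin-like secretory product, was at 27.8, 169, 17174 and 9586 CPM, and Scgb1b27 and Scgb2b26, secretoglobins, had log2 fold changes of -6.29 and -6.37. Klk1b26 and Klk1b9, glandular kallikreins, had 0, 1, 25 and 16 UMIs and 0, 1, 12 and 19 UMIs. Klk1b11, another kallikrein, had 0, 0, 9 and 10 UMIs, at least 21.6-fold lower in the deligated group against 3 counts over that group (edgeR adjusted p 0.139 without deligated library 1 and 0.167 without deligated library 2). Tfcp2l1, a transcription factor of duct epithelium, had 0, 0, 9 and 7 UMIs, at least 18.2-fold lower. Dcpp3, a demilune cell product, had 1, 0, 37 and 5 UMIs.

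The secretory genes were also present in other classes of the same libraries. The list of 20 salivary products summed to 111, 201, 4423 and 2473 CPM in pericytes, to 36.3, 81.8, 3478 and 3113 CPM in endothelial cells and to 96.2, 234, 5190.5 and 4318 CPM in leukocytes. Of 7 tested members in pericytes 6 were called lower. Epithelial markers in pericytes summed to 2.53, 7.79, 72.1 and 158 CPM over 12 genes, with Krt5 and Cldn4 at 0 in every library. The part of free RNA from secretory cells in these values was not tested.

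Camk1d, a calmodulin-dependent kinase with 414 kb of intron, was at 2.53, 0, 845 and 956 CPM, and Cmss1, with 303 kb of intron, at 10.1, 15.6, 5085 and 5034 CPM. Their levels were also lower in both deligated libraries than in both homeostatic ones in other classes. In endothelial cells Camk1d stood at 0.601, 1.39, 1142 and 1227 CPM and Cmss1 at 15.4, 15.1, 5499.8 and 5378 CPM, and in smooth muscle they stood at 10.1, 7.45, 1190.5 and 1147 CPM and 28.5, 29.1, 4919 and 4650.3 CPM.

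The change in pericytes was also tested against the change in each neighbouring class in 1 edgeR model with the library as a block. Against endothelial cells 66 of 13106 genes differed (0.504%), 35 in the higher (0.267%) and 31 in the lower direction (0.237%). Against fibroblasts 51 of 10758 differed (0.474%), 27 higher (0.251%) and 24 lower (0.223%), and against smooth muscle 27 of 7560 (0.357%), 5 higher (0.0661%) and 22 lower (0.291%). The comparisons share the pericyte libraries. Of the named differences, 24 lost their call, 6 turned sign and 7 kept the call when cells were thinned to 1000 UMIs before selection, and 18 lost it, 1 turned sign and 10 kept it with sums thinned to the smallest sum. The first count was 34 without deligated library 2 and 38 without homeostatic library 1. The second was 30 and 33 without deligated library 1 or 2, and the third was 1 without deligated library 1 and 14 without homeostatic library 2. Without deligated library 2 the third split into 12 higher and 15 lower.

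Ndufa4 differed from all 3 neighbours. It stood at 459, 631, 609.8 and 599 CPM in endothelial cells, at 244, 334, 334 and 327 CPM in fibroblasts and at 299, 319, 458 and 376 CPM in smooth muscle. The pericyte change less the other change was -2.28 (SE 0.42, edgeR adjusted p 2.42e-05) for endothelial cells, -2.37 (SE 0.40, edgeR adjusted p 2.57e-05) for fibroblasts and -2.01 (SE 0.40, edgeR adjusted p 0.00747) for smooth muscle. With cells thinned to 1000 UMIs before selection the 3 differences were -0.70, -0.74 and -0.50 and none was called (edgeR adjusted p 0.173, 0.285 and 0.755). The difference from smooth muscle was also lost with thinned sums (edgeR adjusted p 0.177), with a marker sum of at least 6 (edgeR adjusted p 0.309) and when single libraries were left out (edgeR adjusted p 1 without deligated library 1 and 0.127 without homeostatic library 2). Chchd10, a protein of the mitochondrial intermembrane space, was at 10.1, 7.79, 98.3 and 175 CPM in pericytes and at 23.2, 37.1, 69.1 and 52.0 CPM in fibroblasts. Its difference from fibroblasts was -2.94 (SE 0.55, edgeR adjusted p 0.000253), also lost in this way (edgeR adjusted p 0.244 without deligated library 2 and 0.0748 without homeostatic library 2) and with cells thinned (difference -1.88, edgeR adjusted p 0.0709). Mmp11 and a predicted gene lie on the opposite strand of Chchd10.

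Igfbp5 was at 1375, 1248, 1078 and 1079.9 CPM in fibroblasts, and its rise in pericytes exceeded the change there by 1.56 (SE 0.33, edgeR adjusted p 0.00232), a call lost without single libraries (edgeR adjusted p 0.0723 without deligated library 1 and 0.188 without homeostatic library 1) and with cells thinned to 1000 UMIs before selection, where the difference was 0.70 (edgeR adjusted p 0.268). Vim, the intermediate filament vimentin, was at 721, 647, 399.7 and 325 CPM in pericytes and at 1977, 1547, 1947 and 2012 CPM in smooth muscle, a difference of 1.15 (SE 0.21, edgeR adjusted p 0.00369) that was lost in this way (edgeR adjusted p 1 without deligated library 1 and 0.252 without homeostatic library 2). Sparcl1, a matricellular protein related to Sparc, was at 2529, 2105, 1494 and 1175 CPM against 3201, 2846, 2942 and 2703 CPM, a difference of 0.77 (SE 0.18, edgeR adjusted p 0.0374), lost likewise (edgeR adjusted p 1 without deligated library 1, 0.0958 without homeostatic library 1 and 0.516 without homeostatic library 2). With cells thinned the differences were 0.38 for Vim and 0.32 for Sparcl1 (edgeR adjusted p 0.756 and 0.765).

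The change of Jund differed from that in endothelial cells by -1.04 (SE 0.20, edgeR adjusted p 6.58e-05), where it stood at 786, 819.7, 588 and 552 CPM, and this call held without each library in turn. The differences from fibroblasts, -0.82 (SE 0.21, edgeR adjusted p 0.0341), and smooth muscle, -1.06 (SE 0.19, edgeR adjusted p 0.00312), were lost when libraries were left out (edgeR adjusted p 0.878 without deligated library 1, 0.368 without deligated library 2, 0.314 without homeostatic library 1 and 0.078 without homeostatic library 2 for the former; edgeR adjusted p 1 without deligated library 1, 0.0755 without homeostatic library 1 and 0.0747 without homeostatic library 2 for the latter), and neither was called with cells thinned (edgeR adjusted p 0.0529 and 0.0771). Fst, encoding follistatin, which binds activin, was at 48.1, 46.7, 269 and 202 CPM in pericytes (log2 fold change of -2.29 with SE 0.32, adjusted p 9.77e-06 by edgeR) and at 655, 836, 921 and 786 CPM in fibroblasts. Few members carried it, 12, 15, 11 and 10, with up to 13 UMIs in 1 cell.

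The change of Col3a1 was larger in smooth muscle than in pericytes. It stood there at 352, 233, 38.6 and 54.5 CPM, and the difference of changes was -1.47 (SE 0.29, edgeR adjusted p 0.00747), lost without single libraries (edgeR adjusted p 1 without deligated library 1 and 0.499 without homeostatic library 1). With cells thinned it was -0.85 (edgeR adjusted p 0.798).

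**Figure D5:**
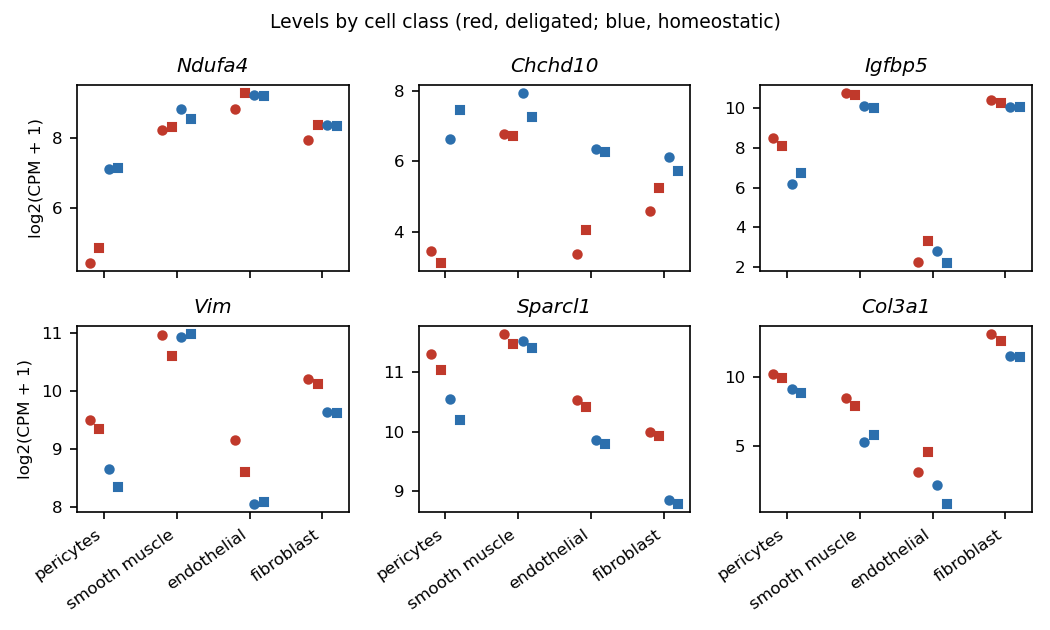
Levels of 6 genes as log2(CPM + 1) in summed cells of 4 classes, with 1 point per library (red, deligated; blue, homeostatic; circle, replicate 1; square, replicate 2; the vertical scale differs between panels). Ndufa4 is lower in pericytes of every library than in any library of the other 3 classes, and lowest in the deligated pericytes.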

How the data were processed

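The deposited matrices hold UMI counts per gene and cell barcode, made by the authors with Cell Ranger (6.0.1 per the submitters' processing notes; 6.0.1 and 7.0.0 per the file headers) on mm10; whether intron reads were counted is not given in the sources used here. Barcodes with under 300 genes or over 10% mitochondrial UMIs were removed, doublets were scored but kept, and 99.9% of gene identifiers matched GENCODE M21 (GRCm38). Library totals were 35662241 to 53898793 UMIs. Member counts were summed per library, the replicate, and tested with edgeR 4.0.16 (quasi-likelihood, TMM, filter on low counts, Benjamini-Hochberg, 0.05; R 4.3.3). Cell counts per class were also tested with edgeR's quasi-likelihood test and Benjamini-Hochberg. There the library size was the number of retained or endothelial cells, with no TMM factors, filter or abundance trend. Alternatives included DESeq2 1.42.0, thinning, other member rules and removal of a loess trend (span 0.5) on intron length. The fits were tested on simulated data.

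Named genes were the identity list, the 10 largest increases and decreases called with and without the trend, up to 4 called and 2 uncalled members of each list, and the 5 largest differences between classes in each direction. Predicted, ribosomal and mitochondrial genes were counted only: of 83 tested ribosomal protein genes, 15 were called higher. Igfbp5, Jund, Ndufa4 and Col3a1 were named in class comparisons after their values were seen. Some genes that this rule names are not reported here. Members and lists were chosen with earlier results of these data known.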

Additional observations from a re-analysis of the deposited data

Results flagged for a closer look

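The results below are those of the named genes whose change differed between pericytes and another class by edgeR's test of the difference itself. Differences are the log2 fold change in pericytes less that in the other class, and adjusted p-values are edgeR's. Where a group had 0 UMIs the adjusted p is given in place of a difference.

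Against endothelial cells, Tesc, a calcineurin regulator, differed by 4.67 and Cd44, the hyaluronan receptor, by 3.82. Tesc stood at 101, 149.97, 170.4 and 158 CPM in pericytes but at 0.751, 3.24, 65.3 and 57.4 CPM in endothelial cells, and Cd44 at 45.5, 37.0, 65.5 and 43.9 CPM against 0.526, 1.19, 15.9 and 15.4 CPM, so in both the endothelial level moved more. Fst differed by -4.57 (edgeR adjusted p 1 without deligated library 2 and 0.118 without homeostatic library 1), with endothelial levels of 0.3004, 2.05, 0.129 and 0.264 CPM. H2-Ab1, a class II histocompatibility gene, differed by -3.16 (edgeR adjusted p 0.287 without deligated library 2 and 0.698 without homeostatic library 1), from 1, 7, 24 and 6 UMIs in pericytes. Sema3c, a secreted semaphorin, had 0, 0, 7 and 4 UMIs in pericytes (adjusted p 7.51e-05). Serpinb1a, a protease inhibitor, had 0, 0, 4 and 3 UMIs (adjusted p 0.00868; edgeR adjusted p 0.23 without deligated library 1, 0.287 without deligated library 2 and 0.147 without homeostatic library 1), and Slco2a1, a prostaglandin transporter, 0, 0, 0 and 4 UMIs (adjusted p 0.0425; edgeR adjusted p 0.451 without deligated library 1, 0.419 without deligated library 2 and 1 without homeostatic library 2). Nup54, a nuclear pore protein, had 12, 18, 0 and 0 UMIs (adjusted p 0.0218) and was not called whichever library was left out (edgeR adjusted p 0.107 without deligated library 1, 0.199 without deligated library 2, 0.469 without homeostatic library 1 and 0.199 without homeostatic library 2). Grik1, a glutamate receptor, had 1, 5, 11 and 6 UMIs (adjusted p 0.001; edgeR adjusted p 1 without deligated library 2). Cxcl10, an interferon-induced chemokine, had 0, 57, 0 and 0 UMIs (adjusted p 0.0402; edgeR adjusted p 1 without deligated library 2, 0.184 without homeostatic library 1 and 0.507 without homeostatic library 2), and 56 of the 57 lay in 1 cell. With sums thinned to the smallest sum the calls of Tesc, Fst, H2-Ab1, Sema3c and Slco2a1 (edgeR adjusted p 1, 1, 1, 0.689 and 1) were lost, with differences of 2.52 for Tesc, -1.96 for Fst and -2.29 for H2-Ab1. With cells thinned to 1000 UMIs before selection the differences were -2.32 for Fst, -1.43 for Sema3c, -0.78 for Slco2a1, 1.34 for Nup54 and 7.69 for Cxcl10 (edgeR adjusted p 0.563, 0.483, 0.957, 0.597 and 0.257). The Grik1 difference was positive, between 5.48 and 7.88 over the alternatives run, although Grik1 fell in pericytes (log2 fold change between -4.27 and -1.80). Its level thus fell more in endothelial cells.

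Against fibroblasts, Tagln differed by -4.25 and Acta2 by -2.86, with fibroblast levels of 50.7, 7.86, 1.502 and 1.01 CPM and 15.1, 10.8, 1.00 and 2.53 CPM. Neither was called with thinned sums, at -5.04 and -0.06 (edgeR adjusted p 0.309 and 1), or with cells thinned to 1000 UMIs (edgeR adjusted p 0.163 and 0.0576), and Acta2 was also lost without a library (edgeR adjusted p 0.225 without homeostatic library 1). Scgb1b27 differed by -3.29, Scgb2b26 by -3.12 (edgeR adjusted p 0.989 without deligated library 1 and 0.456 without homeostatic library 1) and Chchd10 by -2.94 (edgeR adjusted p 0.244 without deligated library 2 and 0.0748 without homeostatic library 2). Rgs6, a regulator of G-protein signals, differed by 3.87 and Cadm3, an adhesion molecule, by 3.76, and neither was called without deligated library 2 (edgeR adjusted p 0.521 and 0.0923). Cxcl10 (adjusted p 3.41e-07; edgeR adjusted p 1 without deligated library 2) rested on the same cell, and Plac8 (adjusted p 0.0395; edgeR adjusted p 0.883 without deligated library 2, 0.293 without homeostatic library 1 and 0.22 without homeostatic library 2) on 29 of 32 UMIs in 1 cell of deligated library 2. Nup54 had an adjusted p of 0.0326 and was not called whichever library was left out (edgeR adjusted p 0.0516 without deligated library 1, 0.123 without deligated library 2, 0.196 without homeostatic library 1 and 0.269 without homeostatic library 2). With cells thinned Scgb1b27 and Scgb2b26 turned sign, and the differences were 0.41 for Scgb1b27, 1.46 for Scgb2b26, -1.88 for Chchd10, 2.06 for Rgs6, 2.30 for Cadm3, 1.41 for Nup54 and 3.32 for Plac8 (edgeR adjusted p 0.916, 0.574, 0.0709, 0.682, 0.513, 0.551 and 0.185). Rgs6 fell in pericytes, with a log2 fold change between -3.64 and -1.69 over the alternatives run, so its difference of 3.87 reflects a larger fall in fibroblasts. With thinned sums Rgs6 turned sign, and the differences were -0.81 for Rgs6, -3.02 for Scgb2b26, -2.83 for Chchd10 and 3.59 for Plac8 (edgeR adjusted p 0.985, 0.67, 0.764 and 0.754).

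Against smooth muscle, Dcpp3 differed by -9.92 and Dcpp2, a related product, had an adjusted p of 1.09e-06. In smooth muscle Dcpp3 stood at 1343, 0, 67.5 and 56.6 CPM, so deligated library 1 alone among the deligated libraries held it, and neither was called without that library (edgeR adjusted p 1 for both). Dcpp2 was also lost without homeostatic library 1 (edgeR adjusted p 0.0522). The globin genes Hba-a2, Hbb-bt and Hba-a1 differed by -7.45 (edgeR adjusted p 0.193 without deligated library 1, 0.994 without deligated library 2 and 0.544 without homeostatic library 1), -6.58 (edgeR adjusted p 0.923 without deligated library 1, 0.1 without homeostatic library 1 and 0.263 without homeostatic library 2) and -6.12 (edgeR adjusted p 0.0954 without deligated library 1, 1 without deligated library 2 and 0.0755 without homeostatic library 1), and smooth muscle of deligated library 2 stood apart, with Hba-a1 at 5.35, 1565, 26.5 and 14.1 CPM. Cdk8, the kinase of the Mediator complex, differed by 1.29, Dmd, encoding dystrophin, by 1.27, Vim by 1.15 and Sparcl1 by 0.766. Vim and Sparcl1 rose in pericytes. Cdk8 fell there (log2 fold change between -5.21 and -4.74 over the alternatives run), as did Dmd in the counts as deposited (between -1.24 and -0.69 with 1 library left out). Cdk8 and Dmd thus fell more in smooth muscle. All 4 were lost without deligated library 1 (edgeR adjusted p 1 each), and Cdk8 also without others (edgeR adjusted p 1 without deligated library 1, 0.0535 without deligated library 2 and 0.0844 without homeostatic library 2). With cells thinned Dcpp3, Dcpp2, Hba-a1 and Hba-a2 turned sign, at 1.76 for Dcpp3, 0.66 for Dcpp2, 3.25 for Hba-a1 and 0.67 for Hba-a2 (edgeR adjusted p 0.917, 1, 0.454 and 0.989), and the other differences not called were 1.03 for Cdk8, 1.10 for Dmd, 0.38 for Vim and 0.32 for Sparcl1 (edgeR adjusted p 0.327, 0.108, 0.756 and 0.765). With thinned sums they were 0.31 for Cdk8, 1.14 for Dmd and 0.74 for Sparcl1 (edgeR adjusted p 0.984, 0.29 and 0.0891).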

How the results depend on the processing

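The rise in the pericyte share (log2 ratio 1.88 to 2.44) and in pericytes per 100 endothelial cells (1.66 to 2.17) kept its call under every alternative run. The 433 genes changed in pericytes became 220 with the intron trend removed, 248 with sums thinned to the smallest library, 665 with cells thinned to 1000 UMIs before selection, 168 by DESeq2, and 265 to 343 when 1 library was left out (281 without homeostatic library 1 and 265 without homeostatic library 2). The thinning of cells decided membership only, and the sums kept all UMIs of the members. It let in others, to 157, 240, 74 and 54 members. These others exceeded an exclusion limit of the rule in raw UMIs. The 66 differences from endothelial cells became 8 with thinned sums, 35 of 5443 genes with a mean of at least 20 CPM in both classes, a filter chosen after seeing the data, and 34 to 55 without 1 library. The 51 differences from fibroblasts became 10 with thinned sums and 30 to 46 without 1 library. The 27 differences from smooth muscle became 13 with thinned sums, 8 with thinned cells and 1 to 27 without 1 library.

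Dmd, with long introns, had a log2 fold change of -0.98 in pericytes and of 1.67 with the trend removed. With thinned cells, differences turned sign for Scgb2b26 (1.46) and Scgb1b27 (0.41) against fibroblasts and for Dcpp3 (1.76), Hba-a1 (3.25), Dcpp2 (0.66) and Hba-a2 (0.67) against smooth muscle. With thinned sums Rgs6 against fibroblasts was at -0.81. The cause was not tested. Library numbers did not pair the samples: deviations of same-numbered libraries correlated at -0.0499 over 5134 genes, with 2 pairs. With a replicate block, 482 genes were called, the share ratio was 2.16 and the ratio to endothelial cells 1.91. Depth limits genes near 10 CPM, which rest on 1 or 2 homeostatic UMIs.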
